A study of Mus musculus with 10 samples.

Results

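The 32 genes described here mark macrophages and lymphocytes, the white blood cells that can lie in or pass through the capillaries of the kidney filter. They were taken from a fixed list of names, and each was read from 1 probe set, the one with the highest mean over all 10 arrays among probe sets annotated to exactly 1 gene. All 32 were measured, of 18193 genes in all, and none was left out for a low signal. Total RNA came from glomeruli, the filtering units, of 10 male mice aged 27 days, with 1 array per mouse. Of these, 5 were Wt1 +/R394W, heterozygous for a knock-in of the R394W missense change in the germline Wt1 gene (mutants 1 to 5), and 5 were Wt1 +/+ littermates (wild types 1 to 5). All mice were FVB/N after 4 generations of backcrossing, which can leave stretches of donor genome around the selected allele, and glomeruli were collected with magnetic beads perfused through the heart. The mutants were chosen with little protein in the urine and no mesangial lesions by light microscopy. Wt1 itself ran from 11.06 to 11.45 in the wild types and from 11.43 to 11.85 in the mutants (limma adjusted p = 0.244), and as a missense allele may leave its transcript level alone, this is no check of the genotype labels.

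Macrophages depend on signals through the receptor CSF1R, a tyrosine kinase that binds either of a pair of ligands, CSF1 and IL-34. The transcription factor PU.1, encoded by Spi1, drives much of the myeloid program, including Csf1r itself. Kidney macrophages are otherwise known by surface markers such as the EGF-domain receptor Adgre1, by the complement chains of C1q and by MHC class II molecules, which present peptides to T cells. The question asked of these arrays was whether the fall of Csf1r in mutant glomeruli was shared by other genes of these cells.

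Csf1r was the single member that passed the test, with a signal 1.98-fold lower in the mutants, and 0 members were called higher. For 24 of the 31 other genes the change differed from that of Csf1r by an exact permutation test, beside 97.0% of all genes. Csf1r was chosen with its fall known and nearly all genes differ from it, so the 24 are no trait of the members. For the other 7 neither a shared fall nor a difference was shown. Il34, the gene of a CSF1R ligand and not a member, fell as well. Many of the white cell genes varied together over a wide range from mouse to mouse, and they did so in both genotypes. A call here is an adjusted p under 0.05 in a limma fit (moderated linear models) over all 45037 probe sets, with Benjamini-Hochberg adjustment. By that rule 1.26% of all genes were called, 0.698% as lower and 0.566% as higher in the mutants, so 1 call among 32 genes says nothing of the members as a group. Changes are mutant mean less wild-type mean on the log2 scale, each followed by a standard error (SE) that rests on n = 5 mice of either genotype.

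The median change was 0.00681 over the 32 members and 0.00428 over all genes. Of the members, 17 had a positive and 15 a negative change. An unadjusted p under 0.05 was reached by 5 members, beside 11% of all genes. In 2 members, Csf1r and Mrc1, every mutant lay below every wild type, and in no member did every mutant lie above. Over all genes the genotypes did not overlap in 3.67%, with the mutants below in 1.97% and above in 1.7%. Because glomeruli are bulk tissue, fewer cells of a type and less RNA per cell cannot be told apart in any of these values.

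**Figure D1:**
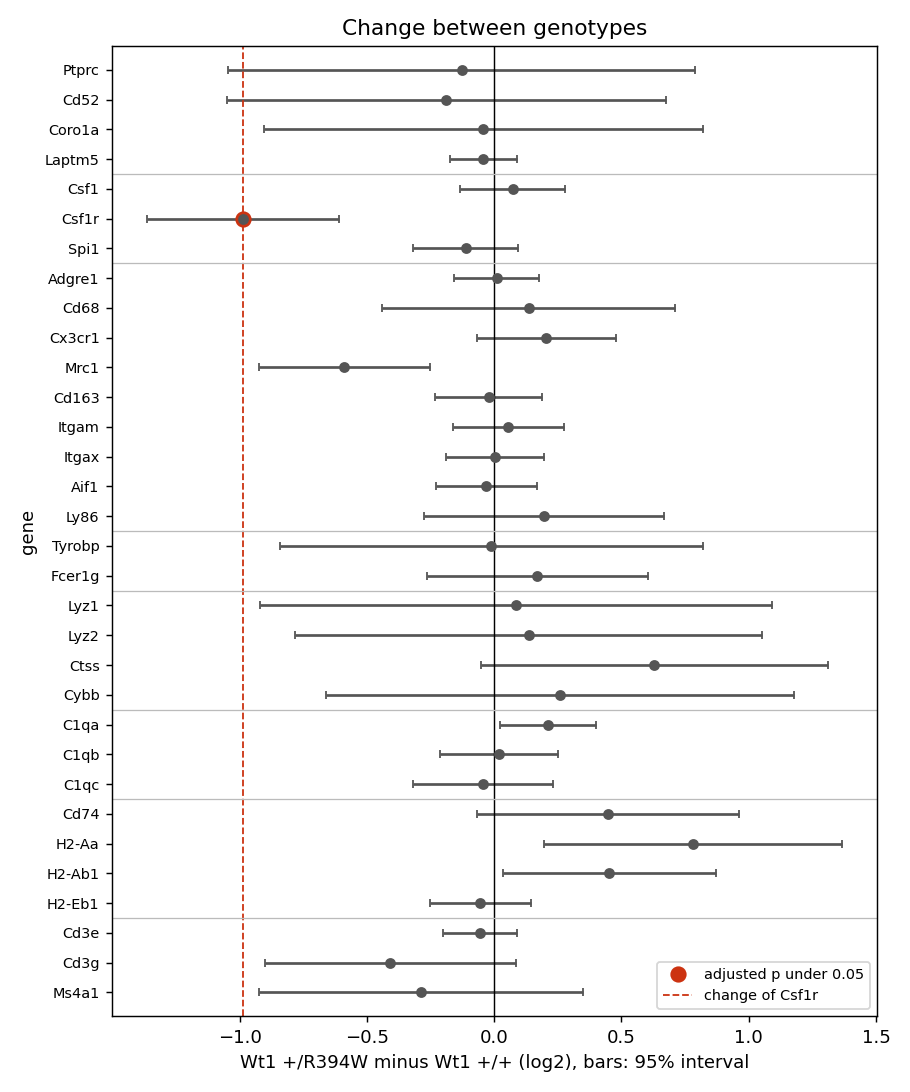
Change of each of the 32 genes between genotypes, in log2 units, with its 95% interval from the limma fit (5 mice per genotype). Genes are grouped by role, the red point marks the call under an adjusted p of 0.05, and the dashed line marks the change of Csf1r at -0.99. The intervals of 29 of the 31 other genes lie wholly to the right of the dashed line, as do those of 98.7% of all genes. The line leaves out the error of the Csf1r change, whose own interval runs from -1.36 to -0.61.

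Csf1r encodes the receptor through which CSF1 and IL-34 keep macrophages alive. Its probe set with the highest mean (1419872_at, chromosome 18) read 8.93, 9.98, 9.45, 9.40 and 9.57 in wild types 1 to 5 and 8.24, 8.78, 8.65, 8.28 and 8.44 in mutants 1 to 5. The lowest wild type was thus above the highest mutant. Wild types averaged 9.47 ± 0.37 (SD, n = 5) and mutants 8.48 ± 0.23 (SD, n = 5), a change of -0.99 ± 0.17 (SE) with an adjusted p of 0.0220 in limma. The call was lost when any 1 of wild types 3, 4 or 5 or mutants 1, 4 or 5 was left out, with adjusted p from 0.00713 to 0.0619 over the 10 such fits. It was also lost when only the 7 mice with neighbouring animal numbers were used, with a change of -1.12 (limma adjusted p = 0.0715). With their runs of numbers as a block the change was -1.11 (limma adjusted p = 0.0994).

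Both other probe sets of Csf1r separated the genotypes too, without passing the threshold. 1419873_s_at read 7.56, 8.60, 7.89, 7.98 and 7.98 in wild types 1 to 5 and 7.13, 7.51, 7.35, 7.27 and 7.46 in mutants 1 to 5. Its change was -0.66 ± 0.16 (SE, limma adjusted p = 0.115). 1423593_a_at ran from 7.45 to 8.12 in the wild types and from 6.96 to 7.37 in the mutants, a change of -0.55 ± 0.13 (SE, limma adjusted p = 0.107). In all 3 probe sets wild type 2 was the highest mouse and wild type 1 the lowest wild type. The mean of the 3 probe sets changed by -0.73 ± 0.14 (SE), with an adjusted p of 0.0291 in a limma fit of gene means.

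Both ligand genes were measured. Csf1, which many stromal and endothelial cells make, read 9.86, 10.17, 10.22, 10.16 and 10.27 in wild types 1 to 5 and 10.07, 10.37, 10.35, 10.20 and 10.06 in mutants 1 to 5. These values overlapped, and the change was 0.07 ± 0.09 (SE, limma adjusted p = 0.867). The 3 other Csf1 probe sets changed by 0.14, 0.12 and 0.23, and none was called. Il34 has 1 single-gene probe set (1431920_a_at), with 7.95, 8.30, 8.03, 8.05 and 8.19 in wild types 1 to 5 and 7.14, 7.37, 7.73, 7.34 and 7.27 in mutants 1 to 5. Every mutant was below every wild type, with averages of 8.10 ± 0.14 (SD, n = 5) in wild types and 7.37 ± 0.22 (SD, n = 5) in mutants. Il34 fell by 0.73 ± 0.11 (SE) on the log2 scale, a 1.66-fold difference with an adjusted p of 0.00891 in limma. That call held in each of the 10 limma fits without 1 mouse (adjusted p from 0.00173 to 0.0281). It was lost when only the 7 mice with neighbouring animal numbers were used, with a change of -0.73 (limma adjusted p = 0.129). With their runs of numbers as a block the change was -0.73 (limma adjusted p = 0.161).

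**Figure D2:**
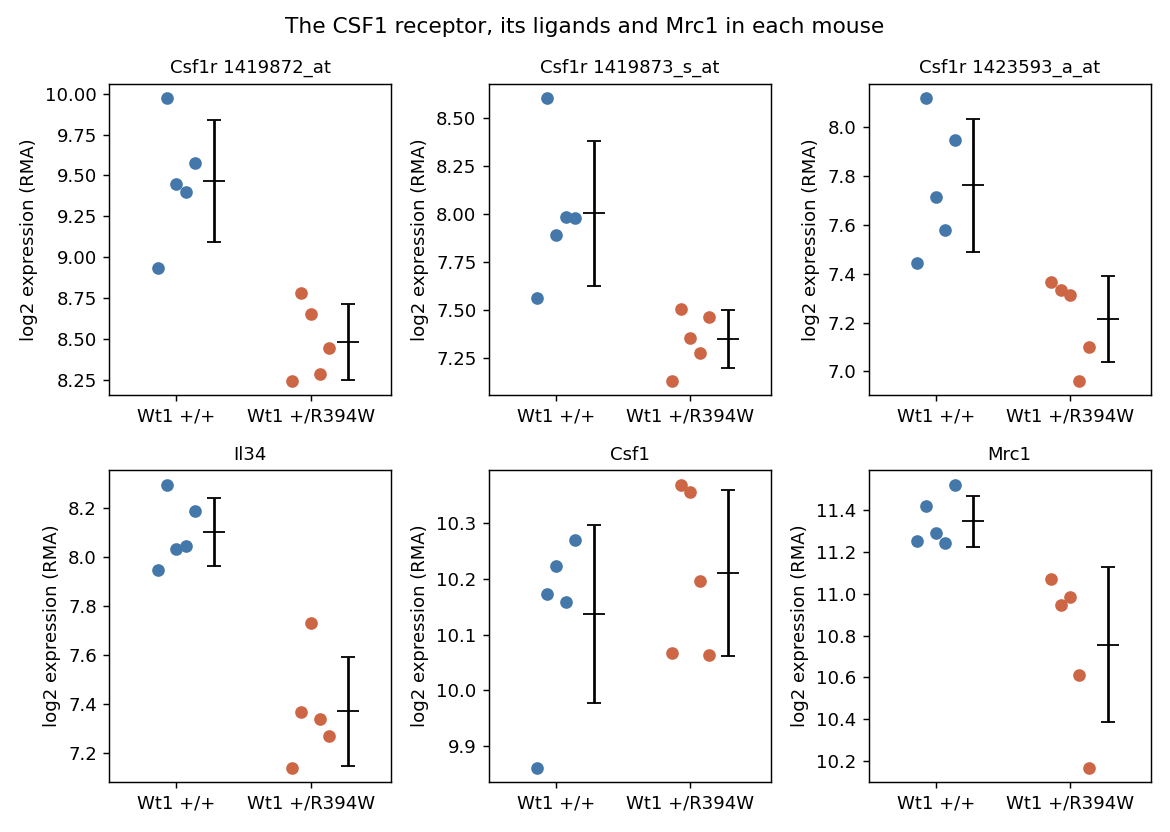
Log2 expression (RMA) in each mouse for the 3 probe sets of Csf1r, for the ligand genes Il34 and Csf1, and for Mrc1; points are mice and bars are the mean ± SD of 5 mice. The vertical axes differ and do not start at 0. The genotypes are separate in all 3 Csf1r panels, in Il34 and in Mrc1, and they overlap in Csf1.

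Of 23 measured genes of CSF1R signalling, Il34 was the only one called, beside 1.26% of all genes, and the median change of that list was -0.06. Of these 23, 16 had a negative change (48.3% of all genes) and 7 an unadjusted p under 0.05 (11% of all genes). The kinase gene Fyn had a change of -0.42 ± 0.09 (SE, limma adjusted p = 0.0833), with 11.36 to 11.69 in the wild types and 10.89 to 11.29 in the mutants. Cbl, an E3 ligase that downregulates the receptor, had a change of -0.51 ± 0.19 (SE, limma adjusted p = 0.384) with overlapping genotypes. Without wild type 5, whose Cbl value of 9.58 lay below the other wild types (10.31 to 10.59), Cbl was called (limma adjusted p = 0.0444). In every other fit without 1 mouse Cbl was not called (limma adjusted p from 0.279 to 0.630). Spi1, the gene of PU.1, ran from 6.10 to 6.52 in the wild types and from 6.005 to 6.35 in the mutants, with a change of -0.11 ± 0.09 (SE, limma adjusted p = 0.790).

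The 4 measured protein-coding genes nearest Csf1r on chromosome 18 did not pass the test. Pdgfrb, its neighbour on one side and a receptor gene of mesangial cells, ran from 12.97 to 13.34 in the wild types and from 12.42 to 13.37 in the mutants, a change of -0.12 ± 0.16 (SE, limma adjusted p = 0.875). Hmgxb3, the neighbour on the other side, changed by -0.05 ± 0.06 (SE, limma adjusted p = 0.839), and the measured genes farther out, Cdx1 and Slc26a2, by -0.02 and 0.06. Cd74, a member on the same chromosome, had a change in the opposite direction, given with the MHC class II genes.

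Among the pan-leukocyte genes 3 of 4 varied widely from mouse to mouse. Ptprc, which encodes CD45, the phosphatase on all nucleated blood cells, read 7.29, 6.69, 9.08, 7.73 and 7.82 in wild types 1 to 5 and 6.70, 8.29, 8.16, 7.66 and 7.17 in mutants 1 to 5. Its lowest and highest mouse were both wild types, and they were 2.38 log2 units apart. Against that spread the change between genotypes was -0.13 ± 0.42 (SE, limma adjusted p = 0.954). Cd52, a small glycoprotein of lymphocytes and monocytes, ranged over 2.33 and Coro1a, an actin regulator of white cells, over 2.36 log2 units, with changes of -0.19 ± 0.39 (SE) and -0.04 ± 0.39 (SE). In Ptprc, Cd52 and Coro1a wild type 3 was the highest and wild type 2 the lowest wild type, and mutant 2 was the highest and mutant 1 the lowest mutant.

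Laptm5, a lysosomal membrane gene of blood cells, depended on the probe set. The one with the highest mean, 1417721_s_at, stayed between 6.72 and 6.92 over all mice, while 1436905_x_at ran from 5.60 in wild type 2 to 7.78 in wild type 3. Neither was called, with changes of -0.04 ± 0.06 (SE) and 0.07 ± 0.40 (SE). The second Ptprc probe set, 1440165_at, had a low mean of 4.31 and was also flat. A flat probe set in these lists therefore does not show that the transcript was flat.

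**Figure D3:**
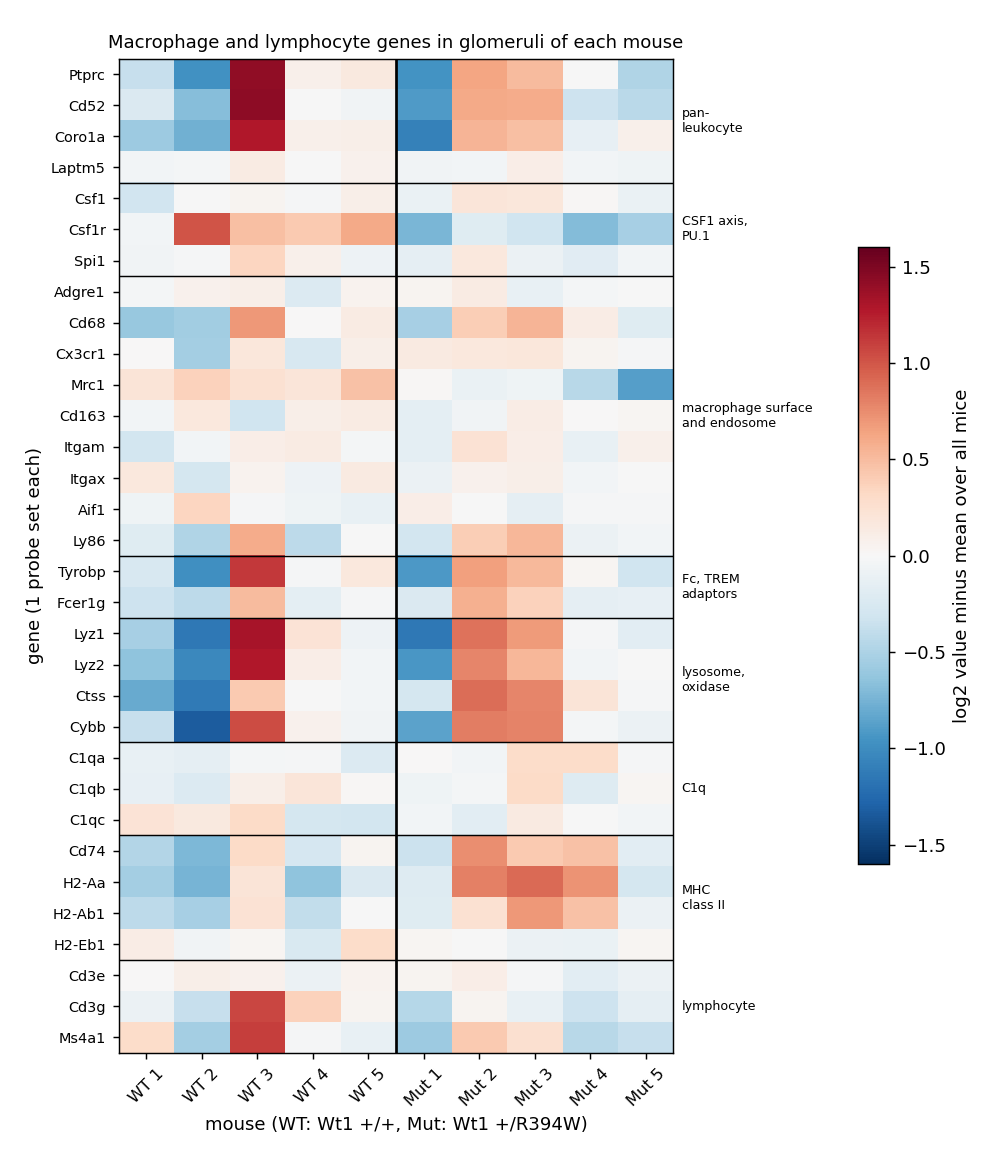
Each row is 1 of the 32 genes and each column 1 mouse; the colour gives the log2 value minus the mean of that gene over all 10 mice, and rows are grouped by role. Wild type 3 is high and wild type 2 and mutant 1 are low in Ptprc, Cd52, Coro1a, Tyrobp, Lyz1, Lyz2 and Cybb, while the Csf1r row is high in wild type 2 and low in all mutants.

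The same order of mice recurred in other groups. It was noticed after the values were seen and was counted as wild type 3 highest and wild type 2 lowest of the wild types, with mutant 1 lowest and mutant 2 or 3 highest of the mutants. That order was found in 14 of the 32 members: Ptprc, Cd52, Coro1a, Ly86, Tyrobp, Fcer1g, Lyz1, Lyz2, Ctss, Cybb, Cd74, H2-Ab1, Cd3g and Ms4a1. It was found in 2.20% of all genes and in 8 of the 42 measured macrophage genes that are no members. A range of 1.5 or more over the 10 mice was reached by 12 members, beside 3.83% of all genes, and 10 of those 12 had the order. Csf1r had a range of 1.73 without the order, since its highest mouse was wild type 2, the wild type in which Ptprc was lowest. In the mutants Csf1r had the same highest and lowest mouse as Ptprc, mutants 2 and 1.

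**Figure D4:**
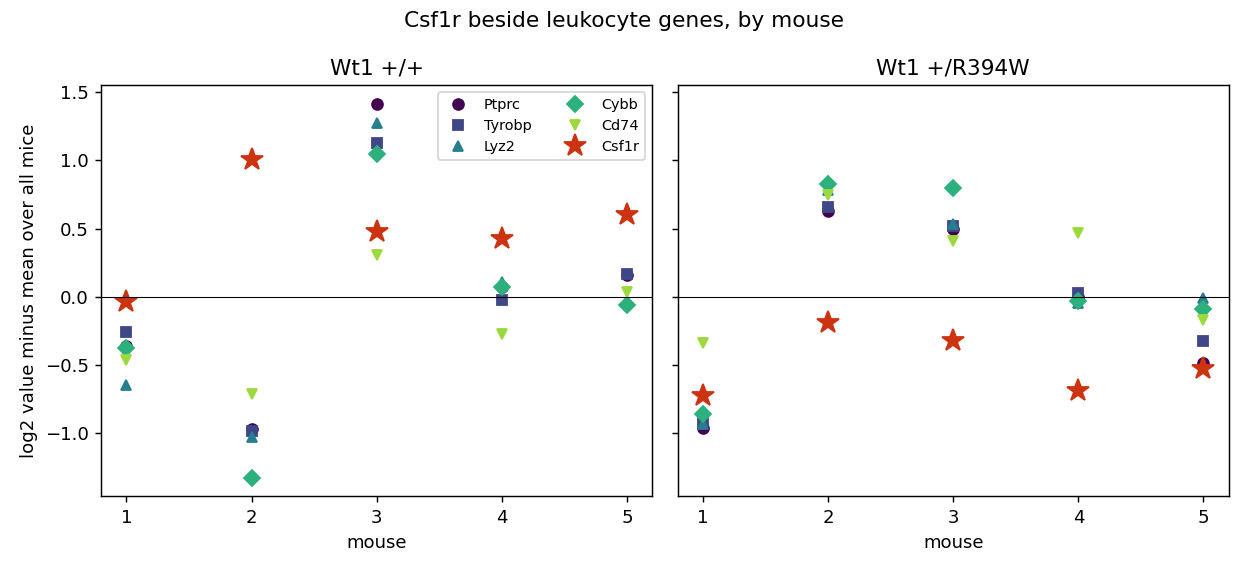
Log2 value minus the mean over all 10 mice, by mouse, for Csf1r (red stars) and for Ptprc, Tyrobp, Lyz2, Cybb and Cd74, with wild types on the left and mutants on the right. Among the wild types Csf1r is highest in mouse 2, where these 5 genes are lowest; among the mutants it is highest in mouse 2 and lowest in mouse 1, as they are, and in mutants 2 to 5 Csf1r lies below or level with them.

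The signalling adaptors and the lysosomal genes followed that order. Tyrobp, the adaptor of TREM2 and other activating receptors, read 6.93, 6.20, 8.32, 7.16 and 7.35 in wild types 1 to 5 and 6.27, 7.85, 7.71, 7.22 and 6.87 in mutants 1 to 5, a change of -0.01 ± 0.38 (SE, limma adjusted p = 0.996). Fcer1g, the shared gamma chain of Fc receptors, had a change of 0.17 ± 0.20 (SE). Lyz1, a lysozyme gene, read 9.13, 8.52, 10.97, 9.88 and 9.57 in wild types 1 to 5 and 8.51, 10.52, 10.33, 9.63 and 9.49 in mutants 1 to 5. Its change was 0.09 ± 0.46 (SE, limma adjusted p = 0.973), and that of its close copy Lyz2 was 0.14 ± 0.42 (SE). The Lyz1 probe set is of a kind (_x_at) that can match several transcripts, so signal of the copies may be shared. Cybb, the catalytic chain of the phagocyte oxidase, ran from 5.06 in wild type 2 to 7.43 in wild type 3, with a change of 0.26 ± 0.42 (SE). The 95% intervals were wide, such as -0.66 to 1.18 for Cybb and -0.84 to 0.82 for Tyrobp, and narrower for Fcer1g (-0.27 to 0.60).

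Ctss, a lysosomal protease that trims the MHC class II chaperone, ranged over 2.03 log2 units. It read 7.83, 7.504, 9.06, 8.64 and 8.60 in wild types 1 to 5 and 8.35, 9.54, 9.42, 8.84 and 8.62 in mutants 1 to 5. Wild types 3 to 5 lay within the range of the mutants, and the change was 0.63 ± 0.31 (SE, limma adjusted p = 0.581).

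To show regulatory sequence of genes that share the order of mice or separate the genotypes, the bases before the gene start are given from RefSeq (build GRCm38.p6), where 23 of the 32 members had an entry. The 250 bases before the start were searched on both strands for GAGGAA, a core recognised by PU.1, and matches (GAGGAA or TTCCTC) are in capitals. Of the 25 entries of these 23 members 10 held a match, beside 23.3% of 32851 promoter entries. Of the 14 members with the shared order 9 were searched, and Ptprc (in 1 of its 2 entries, the one shown) and Ctss held a match. Mrc1 held 3. Csf1r, Cd52, Tyrobp, Cd74, H2-Ab1 and Ms4a1 were not searched.
Ptprc, chr1:138175306-138175555, minus strand: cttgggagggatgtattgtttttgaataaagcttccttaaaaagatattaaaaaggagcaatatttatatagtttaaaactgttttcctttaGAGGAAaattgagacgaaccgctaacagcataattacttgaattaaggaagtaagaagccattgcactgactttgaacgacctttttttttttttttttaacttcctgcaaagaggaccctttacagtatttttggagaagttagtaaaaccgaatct
Ctss, chr3:95526536-95526785, plus strand: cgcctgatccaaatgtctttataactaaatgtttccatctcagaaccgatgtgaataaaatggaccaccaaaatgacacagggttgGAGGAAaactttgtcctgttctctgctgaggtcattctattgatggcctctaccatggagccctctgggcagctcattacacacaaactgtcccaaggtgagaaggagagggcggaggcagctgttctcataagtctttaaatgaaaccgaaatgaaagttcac
Mrc1, chr2:14229164-14229413, plus strand: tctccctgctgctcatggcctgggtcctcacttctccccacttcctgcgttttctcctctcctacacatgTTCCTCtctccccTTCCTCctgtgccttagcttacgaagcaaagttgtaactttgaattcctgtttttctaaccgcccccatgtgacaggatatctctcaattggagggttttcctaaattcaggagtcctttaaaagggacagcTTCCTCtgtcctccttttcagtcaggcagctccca
A match is a description of these letters and does not show binding. Coro1a, Ly86, Fcer1g, Lyz1, Lyz2, Cybb and Cd3g shared the order of mice with no match to GAGGAA in this window. Other sequences that PU.1 may recognise were not searched.

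Mrc1, the mannose receptor of tissue macrophages and of some endothelial cells, was the member that came closest to Csf1r. It read 11.25, 11.42, 11.29, 11.24 and 11.52 in wild types 1 to 5 and 11.07, 10.95, 10.98, 10.61 and 10.17 in mutants 1 to 5. No mutant reached the lowest wild type, and mutant 5 was the lowest of all. The change was -0.59 ± 0.15 (SE) and was not called (limma adjusted p = 0.154). Mrc1 did not share the order of mice of the leukocyte genes, its highest mutant being mutant 1.

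The other surface markers of macrophages had low signals and small changes. Adgre1, the classical surface antigen of mouse macrophages, ran from 4.87 to 5.22 over all mice with a change of 0.01 ± 0.08 (SE). Cd163, a scavenger receptor gene, ran from 3.20 to 3.69 with a change of -0.02 ± 0.10 (SE), and Itgam, the integrin chain CD11b, ran from 3.78 to 4.31 with a change of 0.06 ± 0.10 (SE). Itgax, the integrin chain CD11c, and Aif1, the calcium-binding protein IBA1, changed by 0.00 ± 0.09 (SE) and -0.03 ± 0.09 (SE). Cx3cr1, the fractalkine receptor, had a change of 0.21 ± 0.12 (SE), and Cd68, an endosomal glycoprotein, had one of 0.14 ± 0.26 (SE). In Ly86, which encodes the MD-1 partner of RP105, the change was 0.20 ± 0.21 (SE). Limma adjusted p-values of these 8 genes lay at 0.679 or above. The median of all probe set means was 6.36, and 12 members, 7 of them in this group of 9, had a mean under 6, where RMA compresses differences.

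The C1q chains, which macrophages make to start the classical complement cascade, also had low signals. C1qa read 5.07, 5.04, 5.15, 5.16 and 4.97 in wild types 1 to 5 and 5.19, 5.14, 5.48, 5.48 and 5.16 in mutants 1 to 5. Mutants 3 and 4 were the highest and the genotypes overlapped, with a change of 0.21 ± 0.09 (SE, limma adjusted p = 0.454). C1qb changed by 0.02 ± 0.11 (SE) and C1qc by -0.04 ± 0.13 (SE). Signals of Adgre1, Cd163 and C1q this low mean that the label of macrophage genes rests here on members with higher signals. Among these are Ptprc, Tyrobp, Lyz2, Ctss and Cybb, which blood monocytes, among other white cells, also express. Csf1r (mean 8.97) and Mrc1 (mean 11.05) had higher signals too, without the shared order of mice.

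Of the 4 MHC class II genes, 3 had a higher mean in the mutants, without a call. H2-Aa, the alpha chain of I-A, read 6.92, 6.72, 7.67, 6.81 and 7.23 in wild types 1 to 5 and 7.26, 8.27, 8.37, 8.18 and 7.18 in mutants 1 to 5. Mutants 2 to 4 were above every wild type and mutants 1 and 5 were not. The change was 0.78 ± 0.27 (SE, limma adjusted p = 0.328), and the 3 other H2-Aa probe sets changed by 0.41, 0.28 and 0.04. H2-Ab1, the beta chain of I-A, read 7.003, 6.89, 7.66, 7.04 and 7.42 in wild types 1 to 5 and 7.24, 7.68, 8.12, 7.90 and 7.34 in mutants 1 to 5. There too mutants 2 to 4 lay above the wild types, with a change of 0.45 ± 0.19 (SE, limma adjusted p = 0.485). Cd74, the invariant chain that escorts class II molecules, read 7.61, 7.36, 8.38, 7.80 and 8.12 in wild types 1 to 5 and 7.74, 8.82, 8.49, 8.55 and 7.91 in mutants 1 to 5, a change of 0.45 ± 0.23 (SE, limma adjusted p = 0.611). The probe set of H2-Eb1, the beta chain of I-E, stayed between 6.22 and 6.75, with a change of -0.05 ± 0.09 (SE). Whether FVB/N mice make this transcript was not tested. H2-DMa, which helps to load peptides and is no member, had a change of 0.31 ± 0.09 (SE, limma adjusted p = 0.191).

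Class II promoters carry a Y box, the reverse of CCAAT, and the 250 bases before the start of H2-Aa and H2-Eb1 are shown. They set the class II member whose mean differed most beside the one whose probe set stayed flat, which does not show a flat transcript. The sequences are those of the reference build and were not read from these FVB/N mice. Capitals mark CCAAT or ATTGG, found in 33.8% of all promoter entries on either strand.
H2-Aa, chr17:34287824-34288073, minus strand: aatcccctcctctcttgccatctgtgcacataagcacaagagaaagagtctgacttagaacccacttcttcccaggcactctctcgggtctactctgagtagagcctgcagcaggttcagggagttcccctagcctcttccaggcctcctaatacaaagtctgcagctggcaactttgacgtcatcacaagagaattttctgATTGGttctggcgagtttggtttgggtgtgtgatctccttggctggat
H2-Eb1, chr17:34305617-34305866, plus strand: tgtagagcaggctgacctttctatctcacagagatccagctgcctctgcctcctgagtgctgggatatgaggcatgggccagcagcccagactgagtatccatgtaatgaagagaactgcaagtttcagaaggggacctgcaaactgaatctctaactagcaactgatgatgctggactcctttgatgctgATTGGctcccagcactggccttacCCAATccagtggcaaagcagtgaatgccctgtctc
H2-Aa held 1 match and H2-Eb1 held 2, so the presence of these letters did not separate them.

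Lymphocyte genes had negative changes that were not called. Cd3e, a chain of the T cell receptor complex, read 7.17, 7.26, 7.24, 7.07 and 7.22 in wild types 1 to 5 and 7.20, 7.26, 7.15, 6.998 and 7.07 in mutants 1 to 5. These values lay within 0.27 of each other, with a change of -0.06 ± 0.07 (SE, limma adjusted p = 0.855). Cd3g, another chain of that complex, was highest in wild type 3 at 6.33 and ran from 4.80 to 5.31 in the mutants, a change of -0.41 ± 0.22 (SE). Ms4a1, the B cell antigen CD20, ran from 4.63 to 6.28 in the wild types and from 4.59 to 5.58 in the mutants, a change of -0.29 ± 0.29 (SE). Of 22 other measured lymphocyte genes 0 were called, beside 1.26% of all genes. Of these 22, 19 had a negative change (median -0.07), beside 48.3% negative over all genes. The mean of the 22 was 6.24 in wild type 3, 5.74 to 5.94 in the other wild types and 5.71 to 5.95 in the mutants. A mean under 6, where RMA compresses differences, was found in 14 of the 22. By unadjusted p under 0.05 in limma 0 of those 22 passed, beside 11% of all genes. Gzma, a granzyme of cytotoxic cells, had the largest change among them, -0.55 ± 0.28 (SE, limma adjusted p = 0.584), followed in p by Gzmb, another granzyme, at -0.31 ± 0.16 (SE) and Cd5, a T cell surface receptor, at -0.16 ± 0.09 (SE).

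Whether each gene changed unlike Csf1r was tested on the difference between its value and that of Csf1r in each mouse. The 95% intervals of 29 of the 31 other members in the genotype comparison lay above the estimated change of Csf1r, beside 98.7% of all genes. Those of Ptprc and Cd52 reached it. That count leaves out the error of the Csf1r change, whose own interval ran from -1.36 to -0.61, so it does not show a difference from Csf1r. In the limma fit of these differences 30 of the 31 other members were called, beside 99.0% of all genes. The moderation in that fit gave noisy and quiet genes about the same error, because all differences share the Csf1r values, so an exact permutation test was added after seeing the data. With p-values adjusted over all probe sets it called 24 of the 31, beside 97.0% of all genes. That share follows from the fall of Csf1r, which was known when Csf1r was chosen, and the 24 are no trait of the members. The 7 that were not called were Ptprc, Cd52, Coro1a, Lyz1, Cd3g, Ms4a1 and Mrc1. For Mrc1 the change lay above that of Csf1r by 0.40 (unmoderated 95% interval -0.12 to 0.92), and for Ptprc by 0.86 (-0.32 to 2.04), so neither is shown to differ from Csf1r nor to share its fall. All these differences are from the Csf1r probe set with the lowest change. Against 1419873_s_at the exact test called 20 of the 31, beside 89.4% of all genes, and against 1423593_a_at 17, beside 80.2%. The change of Mrc1 then differed from that of Csf1r by 0.07 (-0.51 to 0.65) and by -0.04 (-0.37 to 0.29), so its direction turned with the probe set. Against 1419872_at the difference was 0.996 (0.57 to 1.43) for Adgre1, 1.20 (0.67 to 1.72) for C1qa and 1.06 (0.74 to 1.38) for Csf1. For Tyrobp it was 0.98 (-0.11 to 2.07), called by the exact permutation test with an adjusted p of 0.0497. Adgre1 and C1qa had low mean signals (5.08 and 5.18), where RMA compresses differences. A flat probe set at such a signal mostly returns the fall of Csf1r, so these markers are not shown to have held their level.

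Of 42 measured macrophage genes that are no members 0 were called in limma and 4 had an unadjusted p under 0.05, beside 1.26% and 11% of all genes. The median change was -0.02. A mean under 6, where RMA compresses differences, was found in 13 of the 42, so these are not shown to have held their level. H2-DMa, given above, had the next smallest p after Cd53. Cd53, a tetraspanin of white cells, had the largest change at 0.67 ± 0.17 (SE, limma adjusted p = 0.129). It read 9.43 to 10.03 in the wild types and 9.71 to 10.60 in the mutants, with mutant 5 the one mutant inside the wild-type range. Without mutant 5 Cd53 was called as higher (limma adjusted p = 0.0132). In every other fit without 1 mouse Cd53 was not called (limma adjusted p from 0.0876 to 0.290). Slc11a1, a metal transporter of phagosomes, and Irf8, a transcription factor of monocytes and dendritic cells, changed by -0.36 ± 0.14 (SE) and -0.37 ± 0.16 (SE), with limma adjusted p-values of 0.423 and 0.482.

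**Figure D5:**
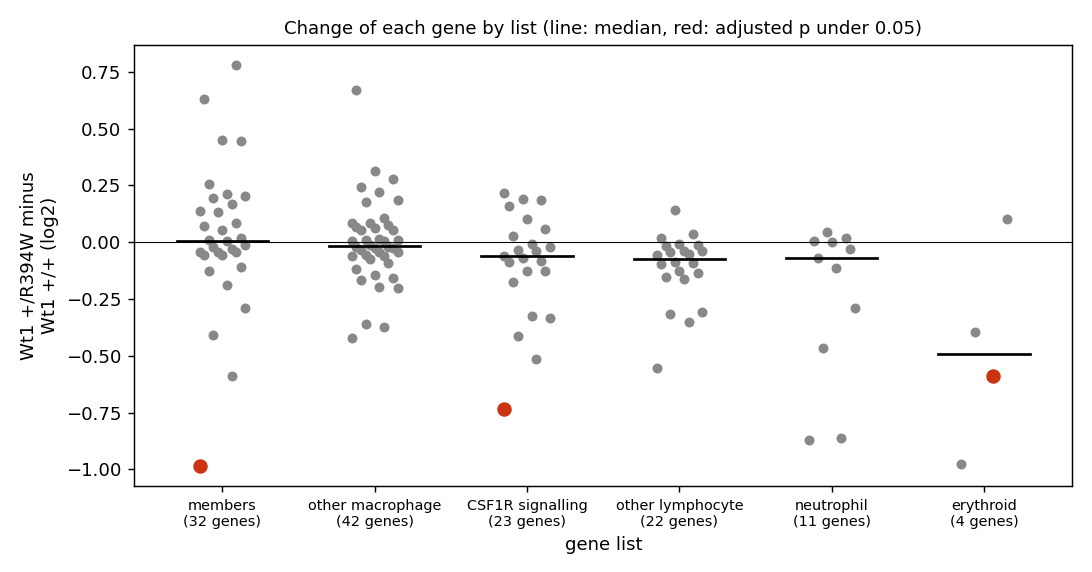
Change between genotypes (log2) of every measured gene, by gene list; horizontal lines are medians and red points have an adjusted p under 0.05. Among the members Csf1r stands alone at the bottom, at -0.99, and in the CSF1R signalling list Il34 is the called gene. In the neutrophil list S100a8 and S100a9 lie at -0.87 and -0.86 without a call.

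Markers of blood and of other glomerular cells stood as follows, and their part in the fall of Csf1r was not tested. Of 11 neutrophil genes 0 were called in limma (1.26% of all genes) and 4 had an unadjusted p under 0.05 (11% of all genes). These were Ltf, a granule iron-binding protein, at -0.46 ± 0.13 (SE), Ngp, a granule protein, at -0.29 ± 0.09 (SE), S100a8 at -0.87 ± 0.34 (SE) and S100a9 at -0.86 ± 0.38 (SE). The mean of that list ran from 5.99 to 6.51 in the wild types and from 5.88 to 6.12 in the mutants. Of 4 measured erythroid genes the only one called, beside 1.26% of all genes, was Slc25a37, a mitochondrial iron carrier. Slc25a37 fell by 0.59 ± 0.12 (SE, limma adjusted p = 0.0436). Only 3 of the 10 fits without 1 mouse called it, namely those without wild type 2, wild type 5 or mutant 3 (limma adjusted p over all 10 from 0.0350 to 0.102). Slc4a1, the red cell anion exchanger, had a change of -0.40 ± 0.12 (SE, limma adjusted p = 0.254). The mean of the 4 erythroid genes ran from 7.13 to 7.82 in the wild types and from 6.66 to 7.11 in the mutants. Of these 4, 3 had a negative change and 3 an unadjusted p under 0.05 in limma, beside 48.3% and 11% of all genes. In 2 of the 4 every mutant lay below every wild type, beside 1.97% of all genes. Podocyte genes, 6 of 10 measured, had means from 13.04 to 13.16 in the wild types and from 12.78 to 13.09 in the mutants. Endothelial genes (10 of 10) had means from 11.76 to 11.97 and from 11.60 to 11.90. Mesangial genes (9 of 10) had means from 10.81 to 11.15 and from 11.04 to 11.50. A negative change was found in all 6 podocyte, all 10 endothelial and 3 of 9 mesangial genes, beside 48.3% of all genes. An unadjusted p under 0.05 in limma was reached by 1 podocyte, 2 endothelial and 3 mesangial genes, beside 11% of all genes. None of the podocyte, endothelial or mesangial genes was called, beside 1.26% of all genes. In these lists the smallest p-values were those of Synpo, Ptpro and Tcf21, of Nos3, Flt1 and Egfl7, and of Acta2, Cspg4 and Tagln (limma adjusted p 0.0863 or above). In the tubule lists they were those of Aqp1, Cubn and Lrp2 and of Scnn1g, Slc12a3 and Pvalb (limma adjusted p 0.226 or above). The proximal tubule list ran from 6.89 to 9.70 and from 7.16 to 10.82, and with the tubule lists as a covariate the change of Csf1r was -0.95 (limma adjusted p = 0.0277).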

How the data were processed

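Each of 10 mice gave 1 array of log2 expression values deposited by the authors, made by RMA per the submitters' processing notes (background correction, quantile normalization between arrays, summary of probes per probe set). The labels name RMA alone, with version and settings not given in the sources used here. All columns were matched to mice by accession and title, and 0 belonged to other samples. Of 45101 probe sets 64 controls were left out. The platform annotation gave 1 gene for 34945 probe sets, several for 932 and none listed for 9160, and 34741 matched the RefSeq table of GRCm38.p6 by gene number, which served for names, chromosomes and gene order. Correlations between arrays ran from 0.985 to 0.997 and array medians lay within 0.0817, and precision is limited by there being 5 arrays per genotype.

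The comparison used limma (3.58.1, in R 4.3.3) without covariates, two-sided. Replicate numbers only name mice. The members, lists and tests were chosen with earlier results of these data known, the fall of Csf1r included. All members are accounted for, and values of every mouse are given for Csf1r, the 6 other members with the smallest p and the member with the highest mean in each role group. For other lists called genes and the 3 with the smallest p were named. S100a9, Irf8, Cd53 without mutant 5, Cbl without wild type 5 and the order of mice were singled out after their values were seen. On simulated data of 45037 probe sets the fit recovered 53.7% of changes of 0.5, 92.8% of changes of 1 and 98.7% of changes of 2. Those changes were placed in probe sets drawn at random, with independent noise. The rate would be lower for members with large errors, such as Ptprc (SE 0.42) and Lyz1 (SE 0.46), and was not simulated for them. Alternatives were other scalings, signal filters, variance models, array weights, probe set rules, thresholds, subsets of mice and a tubule covariate. Figures used matplotlib 3.10.9 in Python 3.11.15.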

Additional observations from a re-analysis of the deposited data

Results flagged for a closer look

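In 3 of 64 groups of 5 values (32 genes in each genotype) 1 mouse stood apart from the other 4 by Dixon's criterion, which flags about 5% of groups by chance. Csf1 was lowest in wild type 1 at 9.86, with 10.16 to 10.27 in the other wild types. Laptm5 (the probe set of highest mean) was highest in mutant 3 at 6.90, with 6.72 to 6.75 in the other mutants. Aif1 was highest in wild type 2 at 5.63, with 5.16 to 5.27 in the other wild types.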

How the results depend on the processing

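The change of Csf1r stayed negative in all 27 alternatives (-1.12 to -0.55) and remained called in 16. It was not called at an adjusted p under 0.01 (-0.99), with only the 7 mice of close animal numbers (-1.12, adjusted p = 0.0715), with their runs as a block (-1.11, adjusted p = 0.0994), or by its other probe sets (-0.66 and -0.55). Leaving out 1 mouse gave -1.12 to -0.86, with 0 to 1 members called lower, 133 to 190 genes called in all beside 230, 0 to 1 other macrophage genes and 1 to 2 CSF1R signalling genes. Members called lower were 0 at the 0.01 threshold, with the close animal numbers and with the block, where genes called in all were 90, 68 and 77. CSF1R signalling genes called were 0 with the close animal numbers, 0 with the block, 0 without probe sets ending in _s_at, _x_at or _a_at (which leaves out that of Il34) and 2 at an adjusted p under 0.1 (Il34 and Fyn). Il34 stayed negative in all 24 alternatives and called in 22. Members that differed from Csf1r numbered 18 when only probe sets with a mean of 6 or more were tested, fewer members being left, 24 by the exact permutation test, and 17 by that test against 1423593_a_at. In 754 fits of the other members under these alternatives 0 were called. No paired analysis was possible because the labels give no litter and no number shared by both genotypes, and the runs of animal numbers used above as a block hold several mice and form no pairs. Low signal limits what can be said of Adgre1, Cd163, Itgam and the C1q chains, and the spread between mice limits Ptprc, Cd52, Coro1a, Lyz1, Lyz2, Tyrobp and Cybb.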

Other observations

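Among genes fixed outside the members, S100a9, a calcium-binding alarmin of neutrophils and monocytes, showed the order of mice counted in 14 members, with 6.72, 6.29, 8.57, 7.50 and 7.56 in wild types 1 to 5. In mutants 1 to 5 it read 6.03, 6.98, 7.05, 6.15 and 6.12. Wild type 3 was the highest mouse and mutant 1 the lowest. Alas2, the heme synthesis enzyme of red cell precursors, had another order, with 9.59, 8.76, 9.20, 9.005 and 10.27 in wild types 1 to 5 and 8.23, 8.96, 8.93, 7.72 and 8.09 in mutants 1 to 5. Its highest mouse was wild type 5 and its lowest mutant 4, and its change of -0.98 ± 0.30 (SE) was not called (limma adjusted p = 0.263).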
